A study of Mus musculus with 2 samples.

Results

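Iron uptake and storage genes were followed here as a set of 8 named genes among the 55357 genes of 2 single-cell tables. The set was chosen by symbol and held the duodenal ferric reductase Cybrd1 (ENSMUSG00000027015), the iron importer Slc11a2 (DMT1, ENSMUSG00000023030), the iron exporter Slc40a1 (ferroportin, ENSMUSG00000025993), the copper ferroxidase Heph (hephaestin, ENSMUSG00000031209), the ferritin subunits Fth1 (ENSMUSG00000024661) and Ftl1 (ENSMUSG00000050708), the transferrin receptor Tfrc (ENSMUSG00000022797) and the haem oxygenase Hmox1 (ENSMUSG00000005413). Each of the 8 genes matched 1 row of the tables and had at least 1 UMI in the kept cells of both libraries, and the rule that named them used no measured value. The members were chosen, however, with earlier results of these data known. The cells came from epithelium of the small intestine, which the study describes as enriched for crypts. It was taken from adip fl/fl mice, which carry the floxed adiponectin gene and no Cre (control mice below), and from their littermates, adip fl/fl-Villi-Cre mice. The Cre of the latter is driven by the villin promoter and deletes that gene in gut epithelial cells (Cre mice below). The mice had a C57BL/6 background and were 8 weeks old and male, and each genotype was measured as 1 pooled library, so the spread between animals is unknown and no test between genotypes was possible. Both genotypes were untreated, and the labels give no segment of the small intestine, while figure legends of the study call the clustered cells ileal.

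Dietary iron enters the enterocyte at its luminal side, where ferric iron is reduced and carried in by Slc11a2, and it leaves at the basal side through Slc40a1, with Heph oxidising it for binding to transferrin. Iron that is not exported is held in ferritin, a shell of heavy (Fth1) and light (Ftl1) chains, and is lost when the enterocyte is shed from the villus tip. Dividing cells take iron from circulating transferrin through Tfrc, and macrophages recover it from haem through Hmox1. Much of this is set after transcription, because iron regulatory proteins bind a stem-loop, the iron responsive element, in the UTRs of several of these transcripts. Bound at the 5′ end it blocks translation, and bound at the 3′ end it protects the transcript from decay.

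The stem-loops in the members' UTRs are shown because they differ in what a transcript level can report: control through the 5′ sites acts on translation and is not measured here, whereas control through the 3′ sites of Tfrc acts on the transcript itself. UTRs of protein-coding transcripts of GENCODE release 21 (mouse, GRCm38, the build of the mm10 label) were searched on the transcript strand for a C, then 5 bases, then the loop CAGTGN, then 5 bases that pair with the first 5, with G-T pairs allowed. In 4 of the 8 genes this pattern was found, and 4 genes (Slc11a2, Cybrd1, Heph and Hmox1) held no such letters in the annotated UTRs, from which nothing is drawn. The pattern allows no unpaired base among the 5 pairs, so a stem-loop with a bulge there would be missed. Over all genes, 31 of 20565 genes with a 5′ UTR (0.151%) and 129 of 20961 genes with a 3′ UTR (0.615%) held the pattern. Each site below lies within 1 exon and is written 5′ to 3′ as 29 bases with the 6 loop bases in capitals, the ferritin and ferroportin sites from the 5′ UTR and the 4 Tfrc sites from the 3′ UTR.
Fth1, chr19:9982732-9982760, plus strand, 5′ UTR: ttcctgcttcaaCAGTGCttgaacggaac
Ftl1, chr7:45459779-45459807, minus strand, 5′ UTR: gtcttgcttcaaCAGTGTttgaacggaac
Slc40a1, chr1:45925465-45925493, minus strand, 5′ UTR: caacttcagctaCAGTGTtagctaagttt
Tfrc, chr16:32631219-32631247, plus strand, 3′ UTR: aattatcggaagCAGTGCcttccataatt
Tfrc, chr16:32631598-32631626, plus strand, 3′ UTR: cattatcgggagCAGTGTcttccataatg
Tfrc, chr16:32631663-32631691, plus strand, 3′ UTR: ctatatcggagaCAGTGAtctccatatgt
Tfrc, chr16:32631710-32631738, plus strand, 3′ UTR: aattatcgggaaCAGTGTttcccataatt

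Transcripts were counted as unique molecular identifiers (UMIs) in 3069 cells of control mice and 5555 cells of Cre mice, with 25687687 and 48895126 UMIs. Cells were grouped by marker genes with the members kept out of the clustering, and a level is the summed UMIs of a class scaled to 1000000 UMIs of that class (CPM), with its exact 95% interval for counting error in parentheses. Crypt cells numbered 82 and 218, the 4 enterocyte classes from villus bottom to villus tip 1946 and 3906, T cells 365 and 441, and myeloid cells 62 and 32. Adipoq itself had 1 UMI over all barcodes of control mice and 0 over those of Cre mice, so the labels could not be checked by it. The study states higher counts of kept cells than this filter left. The libraries shared 31 barcodes, 3 of them among kept cells.

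Slc11a2, which carries ferrous iron into the enterocyte, was, among the crypt and villus zones, highest in the lower villus and lowest at the villus tip. It was measured at 28.9 CPM in crypt cells of control mice and 23.2 CPM in those of Cre mice. At the villus bottom it reached 36.0 (31.1 to 41.4) and 39.6 CPM (36.0 to 43.5), and in the mid-villus 26.3 and 38.9 CPM. At the villus tip it was down to 4.53 CPM (2.26 to 8.10) and 6.59 CPM (4.79 to 8.85), 7.95-fold and 6.01-fold below the villus bottom. The tip intervals lay below those of crypt, villus bottom and mid-villus in both libraries, while crypt, villus bottom and mid-villus lay within 1.71-fold of each other in each library. Outside enterocytes Slc11a2 was measured at 13.2 and 17.4 CPM in goblet cells and at 15.4 and 18.6 CPM in T cells. Myeloid cells held 3 and 7 UMIs, or 11.6 and 47.6 CPM. A class of enterocyte-like cells left unnamed held 17 and 49 UMIs. Its 51.9 CPM in Cre mice was the highest level among classes with at least 40 cells in both libraries.

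Cybrd1, the reductase that prepares ferric iron for Slc11a2, was close to undetected. It had 12 UMIs in all kept cells of control mice and 46 UMIs in those of Cre mice. Of these, 10 and 37 lay in the villus tip class, which gave 4.11 CPM (1.97 to 7.57) and 5.54 CPM (3.90 to 7.64). The villus bottom held 1 and 3 Cybrd1 UMIs and the mid-villus 0 and 4. Most of the few Cybrd1 UMIs therefore lay in the class that held only 1.9% and 3.16% of Slc11a2 UMIs, at counts too low for the call rule used below. Immune cells held 0 Cybrd1 UMIs in both libraries.

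**Figure D1:**
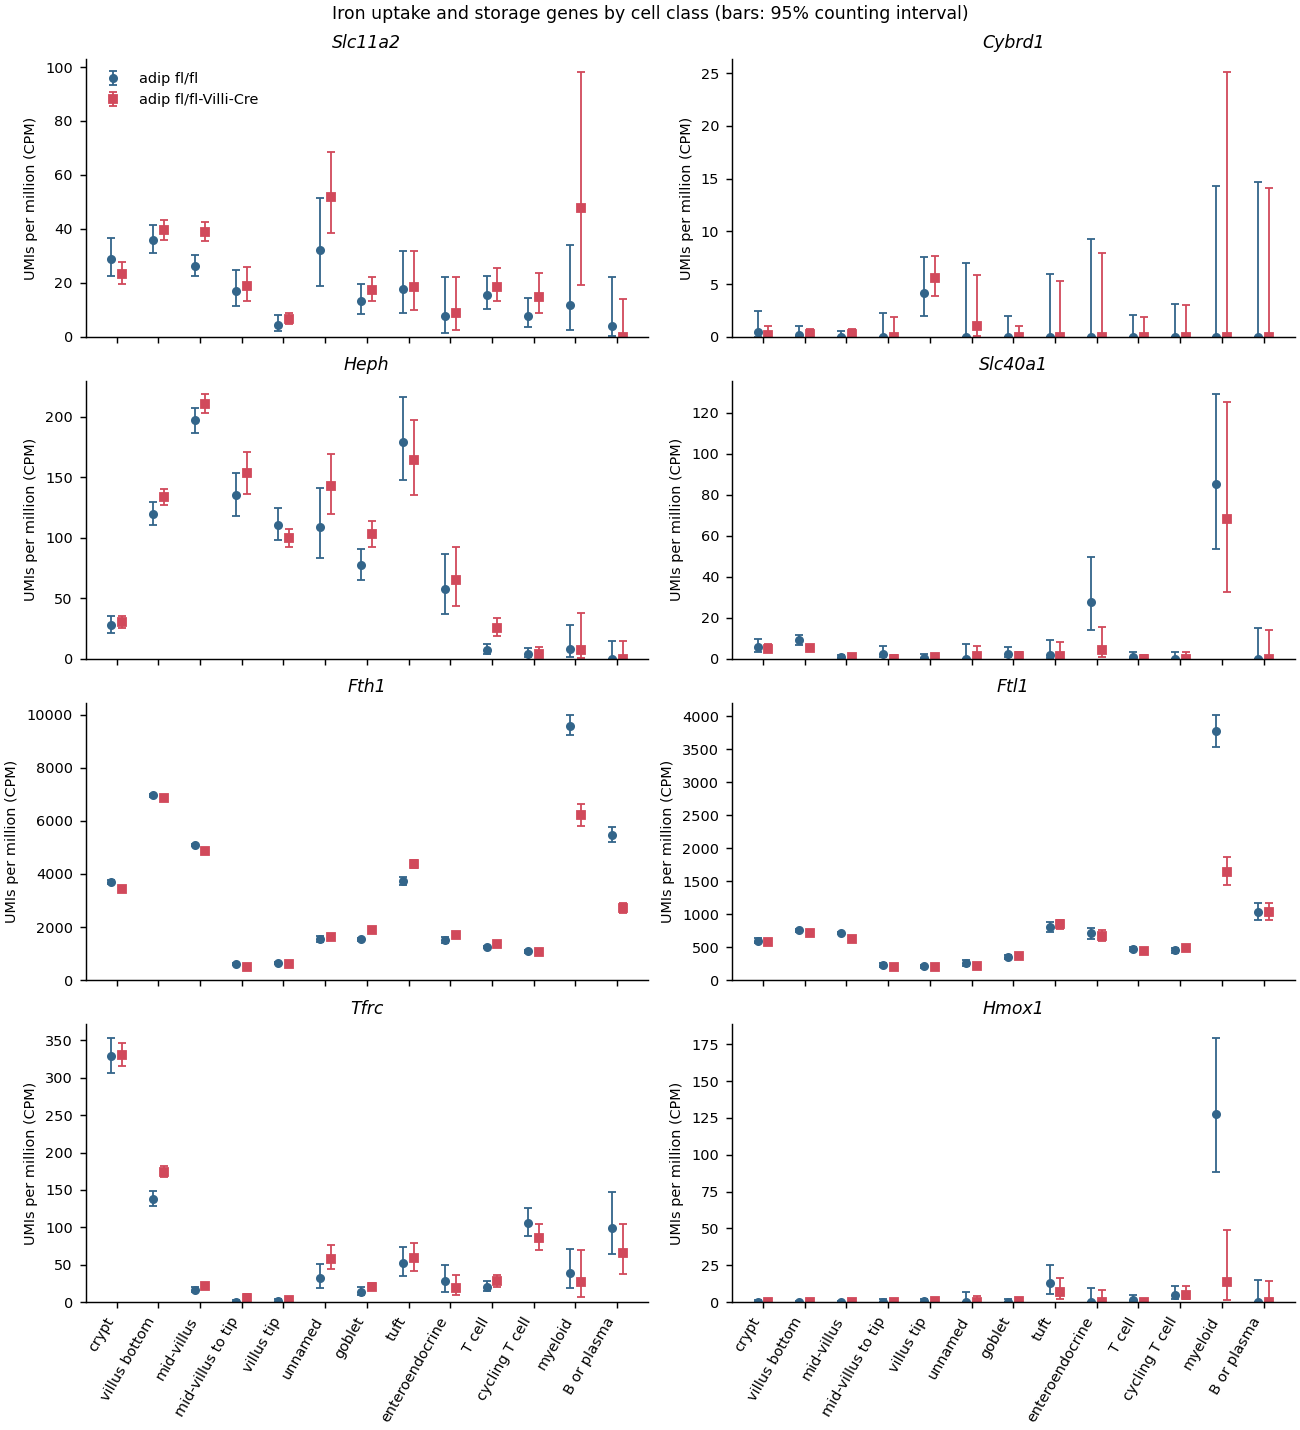
Levels of the 8 genes (CPM, linear axes from 0) in 13 cell classes, with circles for control (adip fl/fl) mice, squares for Cre (adip fl/fl-Villi-Cre) mice and bars for the 95% counting interval. Fth1, Ftl1, Slc11a2 and Tfrc are low at the villus tip, Heph peaks in the mid-villus, and Hmox1 stands out in myeloid cells of control mice at 127.8 CPM.

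Heph, the ferroxidase that works with the exporter, was the one member of the 6 read between these zones whose level at the tip was near that at the villus bottom. It was measured at 27.6 and 30.04 CPM in crypt cells and at 119.5 and 133.6 CPM at the villus bottom, 4.33-fold (3.35 to 5.69) and 4.45-fold (3.79 to 5.25) higher. Its level peaked in the mid-villus at 197 and 211 CPM and was 111 and 99.6 CPM at the villus tip. Villus tip and villus bottom differed by 1.08-fold and 1.34-fold, inside the 2-fold limit used for zones. Tuft cells, chemosensory cells of the epithelium, had 180 (148 to 216) and 164 CPM (136 to 197), overlapping the mid-villus interval in control mice and below it in Cre mice, whereas T cells had 6.85 and 25.1 CPM.

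Slc40a1, the exporter, was a rare transcript of the lower villus and of macrophage-marked cells. The villus bottom held 48 Slc40a1 UMIs in control mice and 59 in Cre mice, or 8.81 CPM (6.499 to 11.7) and 5.23 CPM (3.98 to 6.74). The mid-villus held 5 and 12 UMIs and the villus tip 1 and 5 UMIs. Crypt cells, with 13 and 26 UMIs, stood at 5.61 and 4.68 CPM, within counting error of the villus bottom of the same library. Myeloid cells, 62 and 32 in number, held 22 and 10 UMIs, which is 85.2 CPM (53.4 to 129) and 68.0 CPM (32.6 to 125), the highest level of Slc40a1 among the classes. A single myeloid cell of control mice held 9 of the 22. Enteroendocrine cells held 11 and 2 UMIs, 5 of the 11 in a single cell.

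Fth1, the heavy chain that carries the ferroxidase site of ferritin, was by far the most counted member and was much lower in the upper than in the lower villus. Crypt cells had 3696 and 3432 CPM and the villus bottom 6955 (6885 to 7025) and 6845 CPM (6797 to 6894), where Fth1 held rank 10 and rank 9 among all genes by UMIs. The mid-villus stood at 5093 and 4869 CPM. In the class between mid-villus and tip it was 610 and 515 CPM, and at the villus tip 662 (630 to 695) and 629 CPM (611 to 649), with ranks 138 and 154. Villus bottom exceeded villus tip by 10.5-fold and 10.9-fold. The light chain Ftl1 had a shallower course, with 601 and 581 CPM in crypt cells, 756 and 723 CPM at the villus bottom, 715 and 618 CPM in the mid-villus and 209 and 197 CPM at the tip, a 3.61-fold and 3.68-fold difference between bottom and tip.

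The balance of the ferritin chains therefore shifted along the villus. UMIs from the 3′ end are not scaled by transcript length, so the ratio of the chains is compared between classes and not read as a ratio of molecules of protein. Fth1 UMIs per Ftl1 UMI were 6.14 and 5.91 in crypt cells and 9.20 (8.91 to 9.50) and 9.47 (9.25 to 9.69) at the villus bottom. In the mid-villus they were 7.13 and 7.88. They were 2.65 and 2.55 in the class between mid-villus and tip and 3.16 (2.86 to 3.50) and 3.20 (3.01 to 3.41) at the tip. T cells had a ratio of 2.65 and 3.10, near that of the villus tip, although their Fth1 level was about 2 times as high. Ferritin pseudogene rows took few reads, with 149 and 170 UMIs for Ftl1-ps1, 30 and 134 for Fth1-ps and 2 and 10 for Fth-ps2, and reads shared between a pseudogene and its parent gene could have been left uncounted.

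Depth and mitochondrial share move together with this zonation. The median cell of the villus bottom had 21459 and 20256 UMIs with 6.71% and 5.86% mitochondrial UMIs, that of the villus tip 3756 and 3489 UMIs with 20.3% and 20.4%. The 10 most counted genes took 10.5% and 9.99% of UMIs at the villus bottom and 35.6% and 33.4% at the tip, and the median gene was lower at the tip by 1.09 and 1.15 on the log2 scale of CPM. Among cells of 5000 to 10000 UMIs, Fth1 stood at 3801 (3543 to 4072) and 4477 CPM (4260 to 4702) at the villus bottom and at 784 (723 to 850) and 797 CPM (756 to 841) at the tip, and the order of the classes was kept. Ftl1 in the same cells was 470 and 536 CPM at the villus bottom and 250.5 and 234 CPM at the tip. Among cells with 15% to 20% mitochondrial UMIs, Fth1 was 3062 and 3650 CPM in the 15 and 17 cells of the villus bottom and 688 and 632 CPM at the tip. Within the mid-villus class alone Fth1 ran from 1121 and 1289 CPM in cells of 2500 to 5000 UMIs to 8069 and 6705 CPM in cells above 20000 UMIs. Mid-villus cells under 10% mitochondrial UMIs had 7704 and 6628 CPM of Fth1 and 1004 and 784.5 CPM of Ftl1. At 20% to 25% these were 1298 and 1328 CPM of Fth1 and 323.5 and 273.7 CPM of Ftl1. The ratio of the chains was thus lower at a high mitochondrial share within this class too. The part of depth and cell damage in these differences was not tested beyond this.

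**Figure D2:**
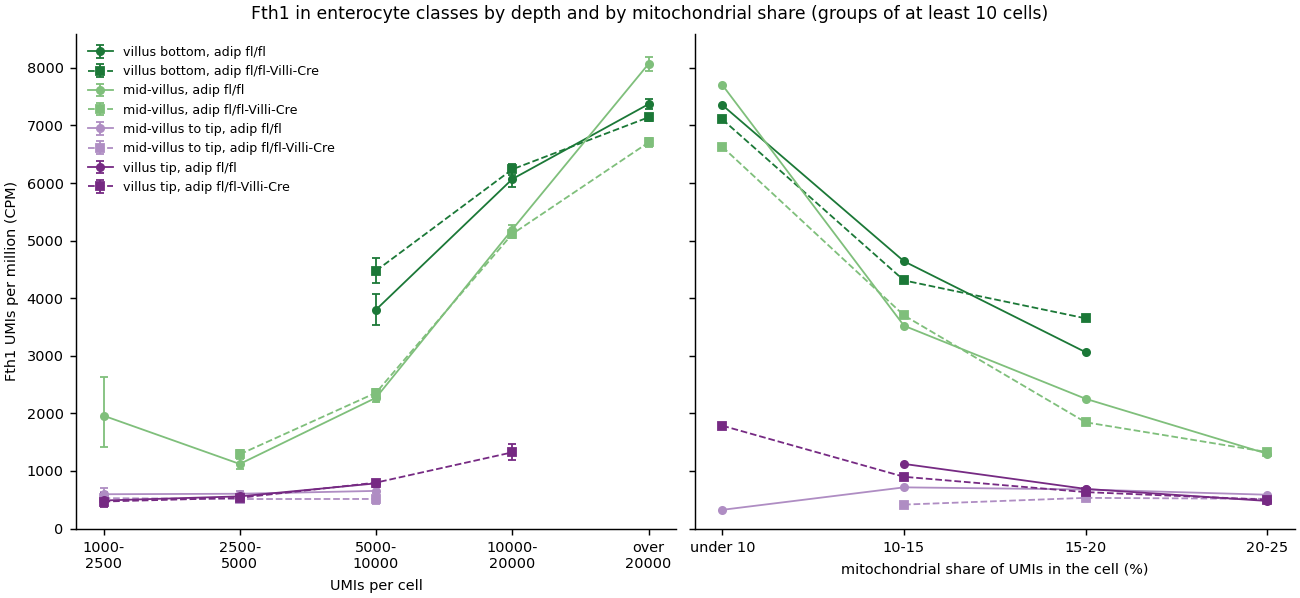
Fth1 (CPM, linear axis from 0) in the 4 enterocyte classes of each library, on the left by UMIs per cell with 95% counting intervals and on the right by the mitochondrial share of the cell, for groups of at least 10 cells. At 5000 to 10000 UMIs per cell the villus bottom stands at 3801 and 4477 CPM and the villus tip at 784 and 797 CPM, while the mid-villus climbs with depth.

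Tfrc, the receptor for transferrin-bound iron, was a gene of the crypt and lower villus and had the steepest course of the set. Crypt cells had 329 (306 to 354) and 331 CPM (316 to 346), the villus bottom 138 (129 to 148) and 174 CPM (167 to 182), and the mid-villus 16.9 and 21.8 CPM. The villus tip held 5 and 19 UMIs, or 2.06 and 2.85 CPM, 67.2-fold (28.7 to 208) and 61.3-fold (39.2 to 102) below the villus bottom. The crypt cells were clustered again together with a class of 4 and 65 cells that held cycling, goblet and Paneth cell markers and has no place among the 13 classes compared. Of these cells, 41 and 117 with stem cell and cycling markers had 302 and 311 CPM of Tfrc and 45 and 110 with cycling and few stem cell markers 337 and 343 CPM. The former group was past 2-fold for 11 stem and 12 cycling markers and the latter for 1 and 10, so both held cycling markers. The group with stem cell markers was also past 2-fold for 5 Paneth cell and 5 fibroblast markers. A further group with cycling, goblet and Paneth cell markers held 0 cells of control mice and 56 of Cre mice, with 304 CPM. Fth1 was 2472 and 2418 CPM in the group with stem cell and cycling markers and 4538 and 4319 CPM in that with few stem cell markers. Cycling T cells had 105 (87.8 to 125) and 85.9 CPM (70.2 to 104) of Tfrc and the other T cells 20.5 and 27.6 CPM. The summed cycling markers were 7439 and 6428 CPM in cycling T cells, 926 and 866 CPM in the other T cells, 4381 and 3997 CPM in crypt cells and 263 and 224 CPM at the villus bottom, where Tfrc was nevertheless above its level in cycling T cells.

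Hmox1, which opens the haem ring and frees its iron, was nearly undetected in crypt cells and enterocytes. All kept cells held 52 Hmox1 UMIs in control mice and 24 in Cre mice. Crypt and each of the 4 enterocyte classes held between 0 and 4 in either library. Myeloid cells held 33 and 2 of them, tuft cells 8 and 5, and cycling T cells 6 and 6, the latter at 5.02 and 4.96 CPM. The 8 UMIs in tuft cells of control mice were 12.9 CPM, the highest level among classes with at least 40 cells in both libraries. A related enzyme outside the set, Hmox2, had 182 and 410 UMIs at the villus bottom alone.

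For calls between zones, a gene had to be past 2-fold with an interval that excluded 1 in both libraries and have at least 20 UMIs over both classes in each. Between villus tip and villus bottom 6 of the 8 members could be read, of which 5 were lower at the tip (Slc11a2, Slc40a1, Fth1, Ftl1 and Tfrc) and 0 were higher. Over all 9964 genes 48.7% were lower at the tip and 9.4% higher by the same rule, so a lower level at the tip was common there. With cells kept only below 10% mitochondrial UMIs the count was 1 of 6 (Tfrc), in a tip class of 28 and 63 cells where Fth1 stood at 0.687 and 0.372 of its villus bottom level, and among cells of 5000 to 10000 UMIs 1 of 3 (Fth1). Between villus bottom and crypt 1 of 6 members (Heph) was higher, beside 9.17% of all genes, and 0 were lower, beside 18.7%. Fth1, at 1.88-fold and 1.99-fold, stood just inside the limit. Between mid-villus and villus bottom 0 of 6 were higher, beside 4.25%, and 2 (Slc40a1 and Tfrc) were lower, beside 12.8%. Tfrc in the mid-villus was at 0.122 and 0.125 of its villus bottom level.

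The same order appeared when the enterocytes were ranked by landmark genes. This ranking is not independent of the classes. Its cells were those of the 4 enterocyte classes, and its landmark lists also served to name the clusters. Enterocytes of each library were ranked by the share of villus tip landmark UMIs among villus tip and villus bottom landmark UMIs and divided into 5 bins of 389 or 390 cells in control mice and 781 or 782 cells in Cre mice. Fth1 went from 7010 and 6773 CPM in bin 1 through 1208 and 853 CPM in bin 3 to 745 and 712 CPM in bin 5. Tfrc was already down to 16.9 and 22.5 CPM in bin 2 from 99.8 and 123 CPM in bin 1. Slc11a2 kept 29.1 and 35.0 CPM in bin 2 and ended at 3.82 and 4.13 CPM. Heph peaked in bin 2 at 181 and 206 CPM and was 94.9 and 86.5 CPM in bin 5. The bins are ranges of a score, and their median depth went from 18808 and 18213 UMIs in bin 1 to 3711 and 3619 UMIs in bin 5. Of bin 5, 372 of 389 cells of control mice and 770 of 781 cells of Cre mice belonged to the villus tip class.

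**Figure D3:**
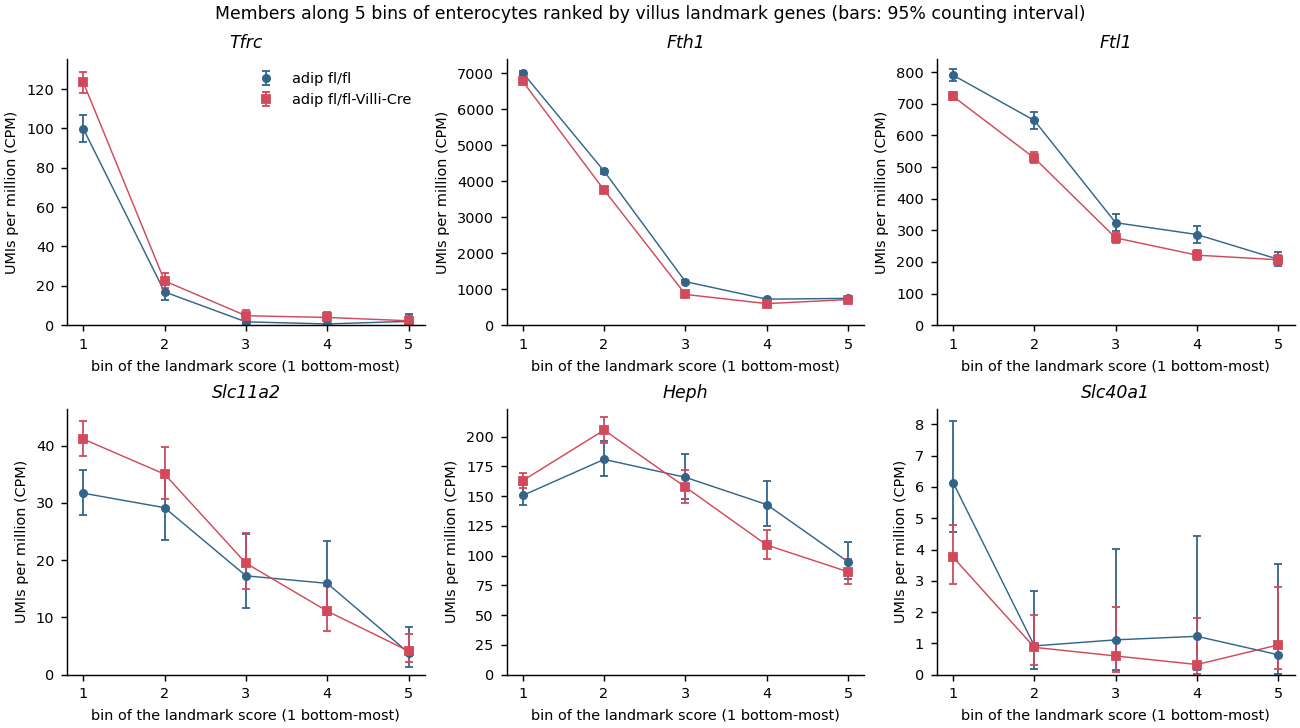
Levels of 6 members (CPM, linear axes from 0) in 5 bins of enterocytes ranked from bottom-most (1) to tip-most (5) by landmark genes, with lines joining the bins of each library and bars for the 95% counting interval. Tfrc and Slc40a1 are low from bin 2 on and Fth1 from bin 3 on, and Heph peaks in bin 2 at 181 and 206 CPM.

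Genes of iron handling outside the set, from lists written by hand, are read against the 48.7% of all genes lower and the 9.4% higher at the tip. Of 7 genes of haem uptake and breakdown, 2 were higher and 4 lower at the tip. The folate and haem carrier Slc46a1 was measured at 81.5 and 71.4 CPM at the tip against 12.1 and 13.2 CPM at the villus bottom, 6.72-fold and 5.41-fold higher. Flvcr2, a transporter of the same family as the haem exporter Flvcr1, was 6.40-fold and 14.6-fold higher, while Hmox2 and the biliverdin reductases Blvra and Blvrb were at 0.130 to 0.175 of their villus bottom level. Of 12 iron-sensing genes 2 were higher, the oxygen-regulated factors Epas1 (7.02-fold and 5.30-fold) and Hif1a (2.30-fold and 2.88-fold), and 4 were lower, among them Aco1, which encodes iron regulatory protein 1, at 0.315 and 0.376. Ireb2, which encodes iron regulatory protein 2, was at 1.22-fold and 1.38-fold and not past the limit. Mitochondrial iron genes were lower in 9 of 11 read, with Glrx5 at 4.11 and 4.49 CPM against 152.8 and 164 CPM. Of the 4 further transporters and reductases read, 4 were lower, and of 3 chaperone and ferritin turnover genes 2 were lower, the iron chaperones Pcbp1 and Pcbp2, while the ferritin receptor Ncoa4 was at 2.17-fold and 1.86-fold, past the limit in 1 library. None of the 11 genes of circulating iron and hepcidin could be read, and 1 of them, Tf, had no row in the tables used here.

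Between mid-villus and tip enterocytes on the one side and T cells on the other, 5 members could be read. Fth1 (3.14-fold and 2.54-fold) and Heph (25.5-fold and 6.93-fold) were higher in enterocytes, 2 of 5 beside 20.8% of all genes, and 0 were lower, beside 34.7%. With each cell weighted equally Fth1 was at 1.61-fold and 1.34-fold, inside the limit. Enterocyte transcripts can be counted with other cells, as free RNA or in doublets, which were kept and not told apart here. In T cells 10 reference genes known from enterocytes stood at 2.89% to 10.2% of their enterocyte level in control mice and at 14.5% to 26.5% in Cre mice. Here the enterocyte level is that of all enterocyte classes together, villus bottom included. Heph in T cells, at 4.50% and 15.8% of the enterocyte level, lay within these ranges, so no Heph expression by T cells is read from it, and the source of these UMIs was not tested. Fth1 (27.2% and 30.8%), Tfrc (38.5% and 40.3%), Slc11a2 (60.7% and 59.1%) and Ftl1 (78.2% and 80.9%) lay above them.

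Landmark genes of the segments gave no single answer, and iron uptake is known to be strongest in the duodenum. Enterocytes had 63.4 and 66.3 CPM of the proximal factor Gata4 and 735 and 611 CPM of lactase (Lct), against 3.48 and 3.14 CPM of the ileal bile acid binding gene Fabp6 and 1.65 and 2.09 CPM of the ileal bile acid carrier Slc10a2. Osr2, also on the distal list, had 94.0 and 99.6 CPM, above Gata4. Pdx1, a duodenal factor, had 0 and 2 UMIs. In 49 and 100 enterocytes with distal and no proximal UMIs, Heph was measured at 82.7 (53.0 to 123) and 88.6 CPM (62.7 to 122), below the 146 (136 to 157) and 154 CPM (147 to 162) of 1029 and 2040 enterocytes with proximal and no distal UMIs. Tfrc was higher in the former, at 172 and 60.6 CPM against 13.9 and 19.0 CPM. These groups also differed in zone, with villus bottom cells making up 26.5% and 11% of the former and 2.14% and 2.5% of the latter, and mid-villus cells 4.08% and 5% against 27.7% and 26.0%, so segment and zone cannot be told apart in them. Fth1 had no common direction, with 3578 against 2255 CPM in control mice and 1756 against 2220 CPM in Cre mice. Slc11a2 was 17.2 and 20.98 CPM against 15.4 and 20.3 CPM, and its intervals overlapped. Divided instead by the presence of Fabp6, Slc10a2 or Fgf15 UMIs, which 86 and 159 enterocytes had, Heph was 154 and 156 CPM with and 152 and 159.5 CPM without them, and its intervals overlapped. Tfrc (90.5 and 120.7 against 49.5 and 63.6 CPM), Fth1 (5500 and 5540 against 4515 and 4321 CPM) and Ftl1 were higher with them, without overlap. Intervals of the other members overlapped. The median depth was 14287 and 13021 UMIs with them and 4350.5 and 4283 without, so segment and depth cannot be told apart here.

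Over 22 points, the 11 classes with at least 40 cells in both libraries, the genes most alike to a member in log2(CPM + 10) were sought among 6910 genes. This was done for members with at least 50 CPM at 1 of these points, which left out Cybrd1, Slc40a1 and Hmox1. Slc11a2 reached it only in the unnamed class of Cre mice, on 49 UMIs. Points of a class share its depth and composition, so the coefficients are descriptions. Heph ran closest to the prostaglandin dehydrogenase Hpgd (Pearson r = 0.974), the solute carrier Slc35f5 (0.966) and the gut transcription factor Gata5 (0.964). Fth1 ran closest to the respiratory chain genes Ndufa6 (0.970), Ndufb9 (0.968) and Cox6a1 (0.949), and Ftl1 to Atp5md (0.939), Hsbp1 (0.938) and Ndufa7 (0.932). Tfrc ran closest to the mitochondrial chaperone genes Hspa9 (0.961) and Timm9 (0.956) and to Ybx3 (0.952). Slc11a2 had the lowest best match, Gpd1l (0.920), followed by Prkag2 (0.908) and Aamdc (0.901). Between members, Fth1 and Ftl1 gave 0.809, and Heph and Tfrc gave -0.350.

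Between the genotypes, the members differed little in crypt cells and enterocytes. A fold of CPM of Cre mice over control mice counted as past the limit at 1.5-fold with an interval that excluded 1 and at least 20 UMIs in both libraries together. Of 27 pairs of member and class read in crypt and the 4 enterocyte classes, 1 was past it. That pair was Slc40a1 at the villus bottom, with 8.81 CPM in control mice and 5.23 CPM in Cre mice, a fold of 0.593 (0.398 to 0.887) on 48 and 59 UMIs. The share of all genes past the limit was 5.67% in crypt cells, 4.11% at the villus bottom, 4.32% in the mid-villus, 7.78% between mid-villus and tip and 6.15% at the tip. The other 26 pairs lay between 0.803 and 1.48. Fth1 lay between 0.843 and 0.984 over the 5 classes and Ftl1 between 0.865 and 0.966, while Tfrc ran from 1.00 to 1.38 over the 4 classes where it could be read. Slc11a2 in the mid-villus came nearest to the limit without passing it, with 26.3 and 38.9 CPM, a fold of 1.48 (1.247 to 1.76). Heph lay between 0.900 and 1.14.

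**Figure D4:**
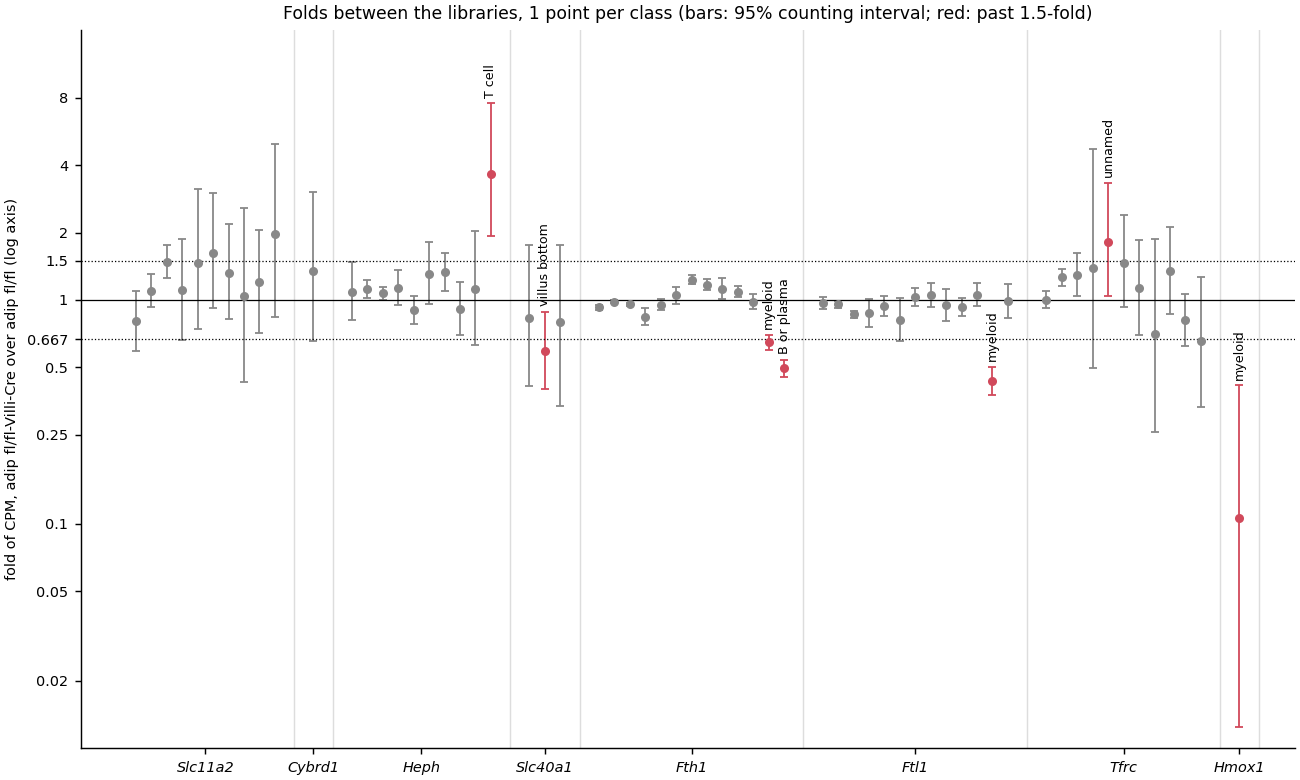
Fold of CPM of Cre mice over control mice on a log axis for each member and class with at least 20 UMIs, 1 point per class, with bars for the 95% counting interval and dotted lines at 1.5-fold. Of 62 points 7 are past the limit (red, class named), 2 above and 5 below 1, and 4 of the 7 are in myeloid and B or plasma cells. The share of all gene and class pairs past the limit is 7.66%.

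Over all 13 classes 62 of 104 pairs could be read and 7 were past the limit (11.3%), 2 higher and 5 lower. By the same rule 7.66% of all gene and class pairs were past it. In other epithelial classes 1 pair was past it, Tfrc in a class of enterocyte-like cells left unnamed and led by Mmrn1, Fgf15, Mlxipl and Lypd8l, with 17 and 55 UMIs, 32.0 and 58.2 CPM, a fold of 1.82 (1.04 to 3.34) beside 7.94% of all genes. None was past it in goblet cells (10.4% of all genes), tuft cells (5.9%), enteroendocrine cells (10.1%) or cycling T cells (6.38%). Fth1 in goblet cells was 1541 and 1901 CPM, a fold of 1.23 (1.18 to 1.29), where the median gene was higher by 0.10 on the log2 scale. In T cells, where 11.3% of all genes were past the limit, Heph had 12 and 50 UMIs, 6.85 and 25.1 CPM, a fold of 3.67 (1.93 to 7.57). The 10 enterocyte reference genes stood at a median of 6.49% of their enterocyte level in the T cells of control mice and 19.0% in those of Cre mice, a shift of the same direction and similar size.

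In myeloid cells 3 of 4 members read were lower in Cre mice, beside 12.9% of all genes in either direction. Fth1 was measured at 9586 (9212 to 9971) and 6220 CPM (5824 to 6637), a fold of 0.649 (0.601 to 0.700), and without the richest cell of each library the fold was 0.71, inside the limit. Ftl1 was 3767 and 1645 CPM, a fold of 0.437 (0.378 to 0.503). Hmox1 had 33 and 2 UMIs, 128 and 13.6 CPM, a fold of 0.106 (0.0124 to 0.416). Slc40a1, with 85.2 and 68.0 CPM, was not past the limit at 0.798 (0.337 to 1.76). The median over the 4 members was -0.91 on the log2 scale and over all genes read in the class 0.03. Hmox1 met the minimum of UMIs through its 33 UMIs in control mice, against 2 in Cre mice. The count of 3 of 4 and the median of the 4 members therefore depend in part on that minimum. They are not read as a shared decrease of the members.

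The myeloid class was a mixture, led by Apoe, Lyz2, C1qa and the mast cell protease Mcpt1, and its makeup differed between the libraries. Cells with at least 3 UMIs of the macrophage complement genes C1qa, C1qb and C1qc numbered 36 of 62 and 12 of 32, a division chosen after the values were seen. In these cells Fth1 was 10628 and 7476 CPM, Ftl1 4666 and 2737 CPM and Hmox1 31 UMIs (232 CPM, 158 to 330) and 2 UMIs (36.7 CPM, 4.45 to 133), while Slc40a1 was 165 and 165 CPM. In the remaining 26 and 20 cells Fth1 was 8471 and 5482 CPM and Ftl1 2805 and 1004 CPM. Of the Fth1 UMIs in these remaining cells, the richest cell held 408 of 1057 in control mice and 130 of 508 in Cre mice. For Ftl1 the richest cell held 108 of 350 and 17 of 93. Within the C1q-marked cells the fold of Fth1 was 0.703 (0.628 to 0.786), inside the 1.5-fold limit, that of Ftl1 0.587 (0.487 to 0.702) and that of Hmox1 0.158 (0.0184 to 0.622), with the Hmox1 UMIs of control mice in 11 of the 36 cells. In the same class the Paneth cell list was at 11.6 and 4657 CPM and the goblet list at 360 and 15737 CPM, a list that was also higher in the T cells of Cre mice (307 and 4079 CPM). Of the 685 Paneth list UMIs of Cre mice, 683 lay in a single cell of 10547 UMIs, which held 54 of 915 Fth1 UMIs and had 60 C1q UMIs. Without this cell, left out after the values were seen, the folds among C1q-marked cells were 0.757 for Fth1, 0.688 for Ftl1 and 0.196 (0.0228 to 0.771) for Hmox1, and only Hmox1 of the 3 was past the limit, on 2 UMIs in Cre mice. In the whole myeloid class without it they were 0.658, 0.455 and 0.115, all past the limit. The cycling list was at 279 and 1162 CPM. The part of these cells in the lower values was not tested.

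In the B or plasma class (30 and 29 cells, led by Igkc, Igha, Jchain and Ly6d) 1 of 3 members read was past the limit, beside 20.8% of all genes. Fth1 was 5481 and 2712 CPM, a fold of 0.495 (0.451 to 0.542), which turned to 1.65 under a mitochondrial limit of 10%, where the class kept 7 and 15 cells. The median gene of the class was lower by 0.29 on the log2 scale. Ftl1 had 1040 and 1032 CPM, a fold of 0.992, and Tfrc 0.655 (0.332 to 1.26). The class held 23 and 14 cells with a UMI of Siglech, a gene of plasmacytoid dendritic cells, and 7 and 15 cells without. This division was chosen after the values were seen. Fth1 was 9775 and 7773 CPM in the former, a fold of 0.795 (0.720 to 0.878), and 491 and 687 CPM in the latter, a fold of 1.40 (1.02 to 1.95). In neither of these groups was Fth1 lower past 1.5-fold, and the share of Siglech cells differed between the libraries. The part of that share in the lower Fth1 of the class was not tested.

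**Figure D5:**
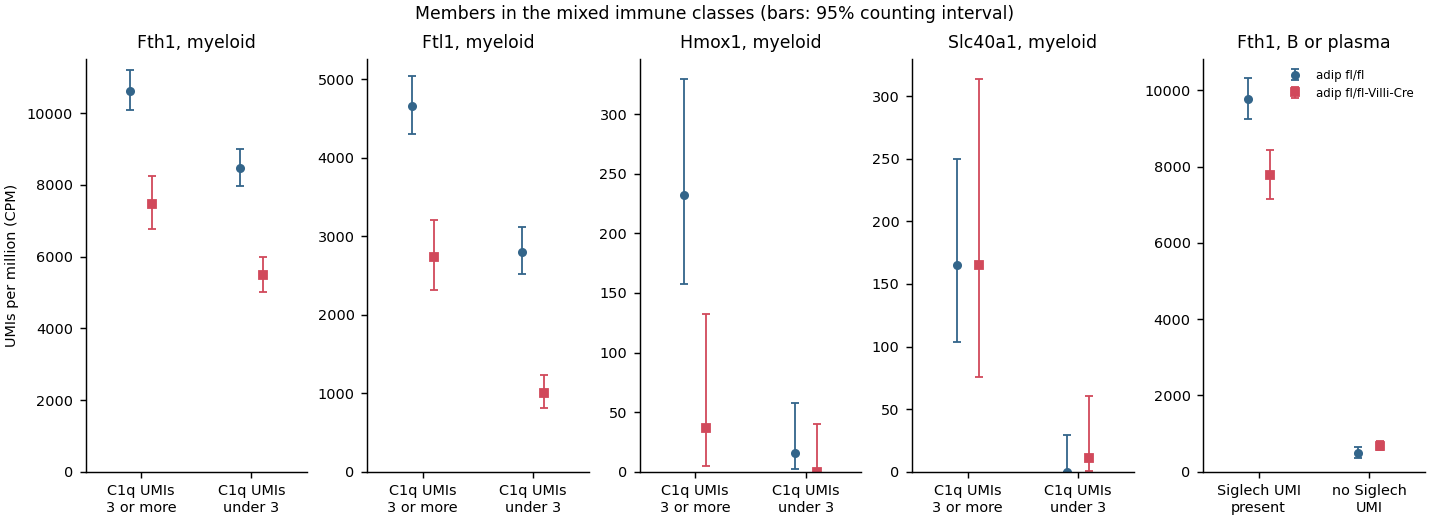
Levels (CPM, linear axes from 0) of Fth1, Ftl1, Hmox1 and Slc40a1 in myeloid cells with 3 or more and under 3 C1q UMIs, and of Fth1 in B or plasma cells with and without a Siglech UMI, with bars for the 95% counting interval. Among C1q cells Ftl1 and Hmox1 are lower in Cre mice past 1.5-fold and Fth1 (10628 and 7476 CPM) within it, with Slc40a1 at 165 CPM in both. Without 1 cell of Cre mice rich in Paneth list UMIs, Ftl1 is also within 1.5-fold (0.688). Fth1 in B or plasma cells follows the presence of Siglech.

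Of the other iron genes, 375 pairs of gene and class were read between the genotypes, of which 20 were higher and 7 lower in Cre mice (7.2%), near the 7.66% of all gene and class pairs, so the genes below are given as values and not as a result about iron genes. Flvcr2 was higher between mid-villus and tip (4.88 and 16.4 CPM, a fold of 3.36, 1.52 to 8.41) and at the tip (8.23 and 18.1 CPM, a fold of 2.20, 1.37 to 3.73). In crypt cells the haem transporter gene Slc48a1 (2.56-fold), Ncoa4 (1.57-fold) and the zinc and iron carrier Slc39a14 (1.53-fold) were higher, the last also in goblet cells (1.59-fold). The crypt class of Cre mice also held more UMIs of other cell types, with the goblet list at 850 and 4682 CPM, the Paneth list at 26.7 and 390.5 CPM and the fibroblast list at 0.862 and 82.4 CPM, whose part was not tested. Bach1, a haem-binding repressor of Hmox1, was higher in T cells (21.7 and 53.3 CPM) and between mid-villus and tip (149.6 and 238 CPM), and in T cells the enterocyte reference genes given above moved the same way. In myeloid cells Blvrb, which like Hmox1 acts in haem breakdown, was lower at 306 and 149.6 CPM, a fold of 0.489 (0.290 to 0.793), and so was Hif1a at 0.549.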

How the data were processed

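Per the labels and the methods, cells of small intestinal epithelium were captured with the 10x Genomics 3′ kit (V3), and the authors used bcl2fastq 5.0.1 for reads and Cell Ranger for UMI counts on mm10, where the matrix headers give version 7.1.0 and the methods an earlier one. The deposited values are raw UMI counts per gene and barcode, before a filter on genes or mitochondrial share. As in the methods, a barcode had to hold over 500 genes and less than 25% mitochondrial UMIs. Applied to all mt- genes, this left 3069 and 5555 cells, fewer than the study states for its filter. With the 13 protein-coding mitochondrial genes alone it left 7637 and 9729, more than the study states, and how its share was computed is not given in the sources used here. The libraries held 42150623 and 63370798 UMIs over 9791 and 11838 barcodes. Cells of both libraries were clustered in Seurat 5.3.0 (R 4.3.3) with LogNormalize, 20 components and resolution 0.8, with 7 iron genes taken out of 2000 variable genes. Clusters were named from marker lists (at least 3 markers past 2-fold), doublets were kept because Scrublet (scanpy 1.11.5) called only 3 and 2 cells, and crypt cells, with the 4 and 65 cells of a class of cycling, goblet and Paneth cell markers, were divided once more at resolution 0.4.

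UMIs were summed per class and library and scaled to CPM. Intervals are exact (Poisson for levels, conditional binomial for folds), cover counting error only, and no p-value was computed with 1 library per genotype. Precision follows the UMIs of a class, from 147103 in myeloid cells of Cre mice to 13477905 in their mid-villus. The calculation of folds was run on simulated Poisson counts of the villus bottom class, with no spread between cells or animals. Such counts check the arithmetic of the intervals only and cannot speak for small or mixed classes. The members and lists were chosen with earlier results of these data known. Named were the 8 members, genes of the iron lists, ferritin pseudogenes and region landmarks. Also named were the 3 genes most alike to each member with at least 50 CPM in a class of at least 40 cells in both libraries. Sequences came from GENCODE release 21. Sums and intervals used scipy 1.17.1, pandas 2.3.3 and numpy 2.4.6 under Python 3.11.15, and plots matplotlib 3.10.9. Alternatives changed the filters, the clustering, the denominator, the weight of cells, doublets and depth.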

Additional observations from a re-analysis of the deposited data

Results flagged for a closer look

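The mitochondrial limit removed 4670 barcodes with more than 500 genes in control mice and 4263 in Cre mice, left out of the comparisons above. In these barcodes 5 members had counting intervals that excluded 1 between the libraries, with no limit set on the fold. The share of all genes for which this held was not computed, so the count is not read as a result about the members. Tfrc was at 5.59 and 9.11 CPM (76 and 108 UMIs), a fold of 1.63 of Cre mice over control mice, and Slc11a2 at 14.0 and 17.8 CPM (191 and 211 UMIs), a fold of 1.27. Cybrd1 had 5 and 17 UMIs, a fold of 3.9 (1.38 to 13.5). Heph, at 101 and 113 CPM, gave a fold of 1.12, and Ftl1, at 141 and 154 CPM, a fold of 1.1. Fth1 was not among them and stood at 542 and 528 CPM in these barcodes, against 3824 and 3814 CPM in kept cells.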

How the results depend on the processing

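The count of member and class pairs past 1.5-fold between the genotypes was 7 and ran from 5 to 12 over 13 alternatives, of which only equal weight for each cell moved it past 1.5 times (12 pairs). That alternative had no counting interval, so its calls rest on the fold and the minimum of UMIs, and its count is not directly comparable. Without the minimum of UMIs, Cybrd1 was past 2-fold between villus tip and villus bottom, higher at the tip (22.4-fold and 20.8-fold). The count of members past 2-fold between these classes, in either direction, was 5, all lower at the tip, and ran from 1 to 6. It was 1 of 6 (Tfrc) under a mitochondrial limit of 10%, where the tip class held 28 and 63 cells, 4 and 17 of them from the tip class used here, and 1 of 3 (Fth1) among cells of 5000 to 10000 UMIs, an alternative chosen after seeing the data that left fewer UMIs. Under the limit of 10% the tip stood at 0.687 and 0.372 of the villus bottom level for Fth1 (0.0951 and 0.0919 otherwise), and at 1.66 in control and 1.00 in Cre mice for Ftl1. Fth1 in B or plasma cells turned to a fold of 1.65 under that limit, 1.40 with the mitochondrial share from the 13 protein-coding genes and 1.77 with at least 1000 genes, where the class kept 7 cells of control mice and 15 or 16 of Cre mice, and no such class formed under 3 others. Tfrc in the unnamed class turned to 0.664 among cells of 5000 to 10000 UMIs. In myeloid cells Fth1 stayed lower but within 1.5-fold under 4 of 13 alternatives (0.685 to 0.882) and Ftl1 under 2 of 13 (0.773 and 0.824). At 1000 genes the cells so named were 23 and 13 cells of the B or plasma class. Slc40a1 at the villus bottom kept its call under 12 of 12 alternatives (0.537 to 0.634), Hmox1 in myeloid cells under 11 of 11 (0.0710 to 0.219) and Heph in T cells under 12 of 12 (2.37 to 11.2). Over all single values 328 kept their side of the limit, 14 became weaker, 10 stronger and 6 reversed. A change of direction was counted only for values that were past the limit at first. Among the others, Heph at the tip of control mice ran from 0.63 to 1.45 of its villus bottom level. No paired analysis was possible because each genotype had 1 library. With 1 library per genotype no replicate could be left out, and depth limits Cybrd1, Slc40a1 and Hmox1, which had 12 to 123 UMIs per library.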
